A study of Oryza sativa with 6 samples.

Results

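The loci described here are the 163 genes of the deposited comparison whose identifiers run from LOC_Os11g09100 to LOC_Os11g12500 on rice chromosome 11, out of 1904 loci listed for that chromosome and 30020 rows in all. All rows in that number range were taken, at any level of expression, but the range itself was chosen by its log2 fold changes in this same comparison, which had shown many strong calls there. The counts and sizes of change below therefore describe the interval and test nothing about it.

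The data are RNA-seq of rice (Oryza sativa, cultivar Nipponbare) seedlings aged 30 days, in 3 wild-type and 3 oschz1 libraries. Both genotypes were grown on half-strength medium for 10 days and on full-strength medium for another 20, in cycles of 14 h light (30 °C) and 10 h dark (28 °C). By the study's methods, oschz1 here is the oschz1-1 allele, a small CRISPR/Cas9 deletion in an exon of OsChz1, in transgene-free plants of a single line that had been regenerated through callus. Whatever else distinguishes that line from wild-type cannot be told apart from the loss of OsChz1. Each library was made from pooled seedlings, so that fewer cells of a type and less RNA per cell cannot be told apart, and the labels do not say that the pools were grown apart.

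OsChz1 is a histone chaperone, a protein that escorts histones before they enter nucleosomes, and Chz1 was first described in yeast as a partner of the histone variant H2A.Z. Locus numbers of the MSU rice annotation follow the order of genes along a chromosome, so neighbouring numbers are neighbouring genes. Chromosome 11 of rice is known for large tandem arrays of disease-resistance receptor genes and for wide differences in gene content between cultivars. The files and the reference gene table used here attach no name or function to any of the 163 identifiers, and no role is given to them.

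The deposited table holds, for each gene, a mean normalized count over all 6 libraries and the log2 fold change between genotypes and the standard error (SE) of that change. Positive fold changes are read as higher in oschz1. A gene counts as tested if the table lists an adjusted p for it. It was called at a fold change of at least 1.5 in either direction with an adjusted p of at most 0.05. The mean and the fold change together imply a level in each genotype, given below as a normalized count. At low counts the reads of each library were recovered from the same columns, for 86 of the 163 members. These libraries are named by genotype and depth, because the table does not tie them to replicate numbers. Their size factors, which measure depth relative to the set, ran from 0.596 to 1.59, and the listed means summed to 23667139 normalized counts, the average total of a library.

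Between LOC_Os11g09100 and LOC_Os11g12500, genes had moved strongly in both directions. Of the 135 tested members, 28 were called higher in oschz1, beside 6.24% of all tested genes and 6.92% of the tested loci on the rest of chromosome 11. Another 18 were called lower, beside 1.34% of all tested genes and 1.71% of the rest of the chromosome. The 46 called members were 34.1% of those tested, against 121 of 1402 loci, or 8.63%, elsewhere on the chromosome. Calls towards lower expression made up 39.1% of the members called and 19.8% of the calls on the rest of the chromosome.

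The called members also stood far from no change. Among the 135 tested members, 19 called ones had a log2 fold change of at least 3 in size. Of these, 12 were higher and 7 lower in oschz1. The rest of chromosome 11 held 18 such loci among 1402 tested, and all 18 were higher. All 25945 tested genes, members included, held 314, of which 289 were higher and 25 lower. The median log2 fold change was 2.49 for members called higher and -1.73 for members called lower, against 1.6 and -1.16 on the rest of the chromosome.

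**Figure D1:**
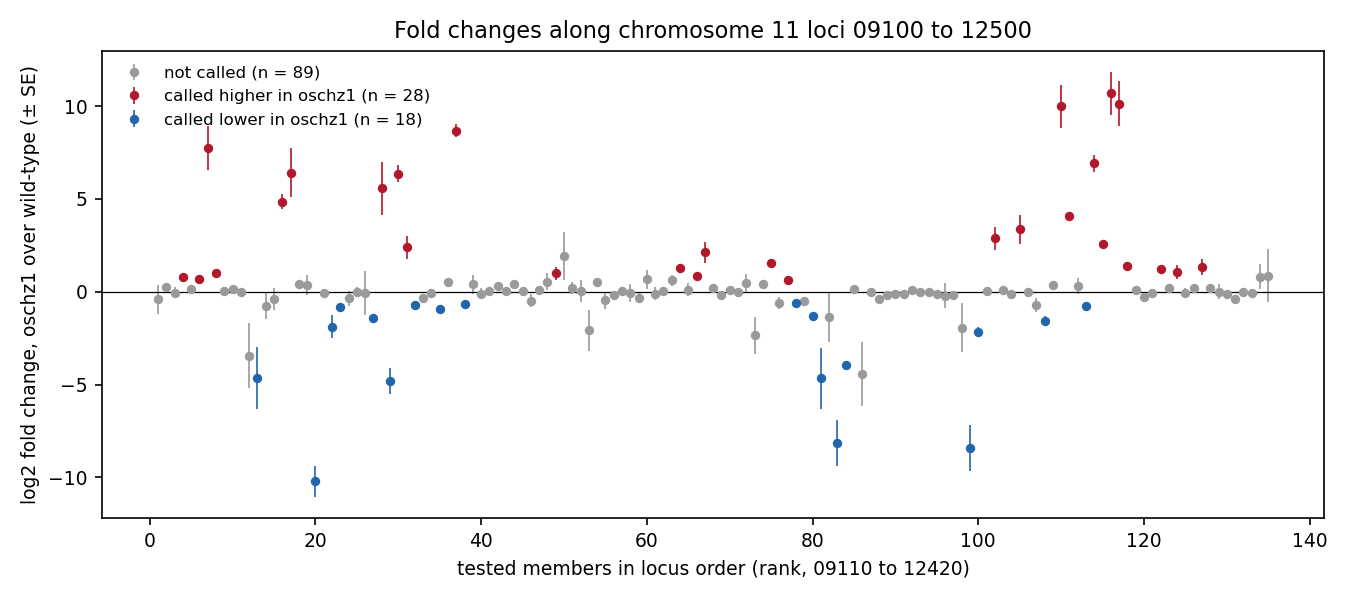
Log2 fold change of oschz1 over wild-type (vertical axis, ± SE) for the 135 tested members in locus order (horizontal axis, rank). Red and blue points are members called higher (28) and lower (18), grey points the 89 not called. Members far above and members far below 0 lie on both sides of a stretch near 0.

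Higher and lower members were mixed, and the middle of the distribution lay near 0. The median log2 fold change of the tested members was 0.03, with quartiles at -0.36 and 0.54, and 72 members were above 0 and 63 below. On the rest of the chromosome the median was 0.01 and the quartiles were -0.17 and 0.30. The median size of change regardless of direction was 0.42 among members and 0.21 elsewhere. The 89 tested members that were not called had a median of 0.18. Summed over all 163 members, the implied level was 63673 normalized counts in wild-type and 69742 in oschz1, a ratio of 1.1, and it was 0.988 over the rest of the chromosome.

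Members were at levels near those of the rest of their chromosome. Their median mean normalized count was 72.7 over all members and 143 over tested ones, against 58.4 and 132 for the rest of chromosome 11. Calls were found at every level. They took 4 of 16 tested members with means under 10, 12 of 33 between 10 and 50, 12 of 31 between 50 and 200, 14 of 32 between 200 and 1000, and 4 of 23 at 1000 or more. The matching shares on the rest of the chromosome were 5.79%, 11.4%, 16.3%, 6.27% and 1.44%.

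Some genes of the interval were read almost entirely in 1 genotype. The interval was picked by its fold changes, which favours such genes, and they were counted on chromosome 11 only. Of the 119 members with a mean of at least 10, 4 had under 3 reads implied for the wild-type libraries together and 3 had under 3 for the oschz1 libraries, of which LOC_Os11g09590, just under that limit by its implied level, had 3 reads once they were recovered. Among the 1160 loci of the rest of chromosome 11 at that level, 1 had under 3 reads in wild-type and 0 had under 3 in oschz1. The reads of these 7 members are given next in the order deepest, middle and shallowest library. Where a genotype had no read, the fold is a lower limit set against 3 reads over its libraries together, and where it had 1 to 3 reads the ratio carries a 95% counting interval. The intervals cover counting error only. The limits cover it only for the genotype without reads and take the reads of the other genotype as exact.

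Of the 3 genes with almost no reads in oschz1, LOC_Os11g09590 was the most abundant in wild-type. It had 1760, 829 and 821 reads in the wild-type libraries and 1, 2 and 0 in the oschz1 libraries. This gave 1077 ± 57.1 normalized counts in wild-type (SD, n = 3) and 0.782 ± 0.843 in oschz1 (SD, n = 3), a read ratio of 1185 with an interval from 405 to 5749, and the genotypes did not overlap. LOC_Os11g11320 had 74, 64 and 47 reads in wild-type and 0, 0 and 0 in oschz1, and was 68.7-fold lower in the mutant by this limit. LOC_Os11g10840 had 58, 47 and 45 reads in wild-type and none in the 3 oschz1 libraries, with a limit of 56.4-fold lower.

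The opposite pattern was found for 4 genes. LOC_Os11g11920 had 1, 0 and 0 reads in wild-type and 939, 761 and 308 in oschz1, where its level was 595 ± 67.4 normalized counts (SD, n = 3). The read ratio was 1926 with an interval from 345 to 76111, wide because a single wild-type read set the lower level. Its near neighbour LOC_Os11g11940 had 0, 0 and 0 reads in wild-type and 349, 226 and 124 in oschz1, at least 221-fold higher. LOC_Os11g11694 had 1, 0 and 0 reads in wild-type against 536, 479 and 212 in oschz1. In that gene the ratio was 1177, with an interval from 211 to 46523. LOC_Os11g09200 had 0, 1 and 0 reads in wild-type and 101, 74 and 63 in oschz1, a ratio of 228 between 40.6 and 9054.

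Other strong increases began from a few wild-type reads. LOC_Os11g11810 had 4, 6 and 2 reads in wild-type and 699, 576 and 257 in oschz1, with a log2 fold change of 6.92 (SE 0.43). The ratio of its recovered group means was 110.0, and 176 without the middle wild-type library. LOC_Os11g09830 had 4, 4 and 3 reads in wild-type against 406, 349 and 179 in oschz1, and its log2 fold change was 6.35 (SE 0.46). LOC_Os11g09460 had 12, 4 and 3 reads against 282, 215 and 88, for 4.87 (SE 0.39). In each of these genes all 3 oschz1 libraries were far above all 3 wild-type libraries. LOC_Os11g11410 was at a lower level, with 0, 4 and 2 reads in wild-type and 24, 40 and 9 in oschz1, and its log2 fold change of 3.36 had an SE of 0.81.

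For the remaining increases named, single libraries could not be read out of the table. LOC_Os11g09979 had the highest level among the strongly increased members, an implied 5.10 normalized counts in wild-type and 2103 in oschz1, with a log2 fold change of 8.69 (SE 0.37). LOC_Os11g11770 went from an implied 17.8 in wild-type to 299 in oschz1, a log2 fold change of 4.07 (SE 0.24).

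Among members with means of at least 10, the next decreases by size left more reads in oschz1. LOC_Os11g09820 had 82, 32 and 46 reads in wild-type and 3, 3 and 0 in oschz1, a log2 fold change of -4.82 (SE 0.69). The ratio of its recovered group means was 33.8, and 22.5 without the shallowest oschz1 library. LOC_Os11g10850, next to LOC_Os11g10840 in locus order, had implied levels of 2221 normalized counts in wild-type and 144 in oschz1, a log2 fold change of -3.95 (SE 0.11). LOC_Os11g11330, next to LOC_Os11g11320, went from an implied 132 to 29.2, or -2.18 (SE 0.27). In both places a gene without oschz1 reads was therefore followed by a neighbour with fewer, but not absent, reads.

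The other decreases named were smaller still. LOC_Os11g09670 had 33, 11 and 18 reads in wild-type and 11, 5 and 2 in oschz1, with a log2 fold change of -1.89 (SE 0.61). LOC_Os11g11550 had 107, 61 and 62 reads against 36, 27 and 18, for -1.58 (SE 0.29). The implied level of LOC_Os11g09710 was 256 in wild-type and 96.4 in oschz1, and that of LOC_Os11g10780 was 374 and 152, with log2 fold changes of -1.41 (SE 0.16) and -1.30 (SE 0.13).

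**Figure D2:**
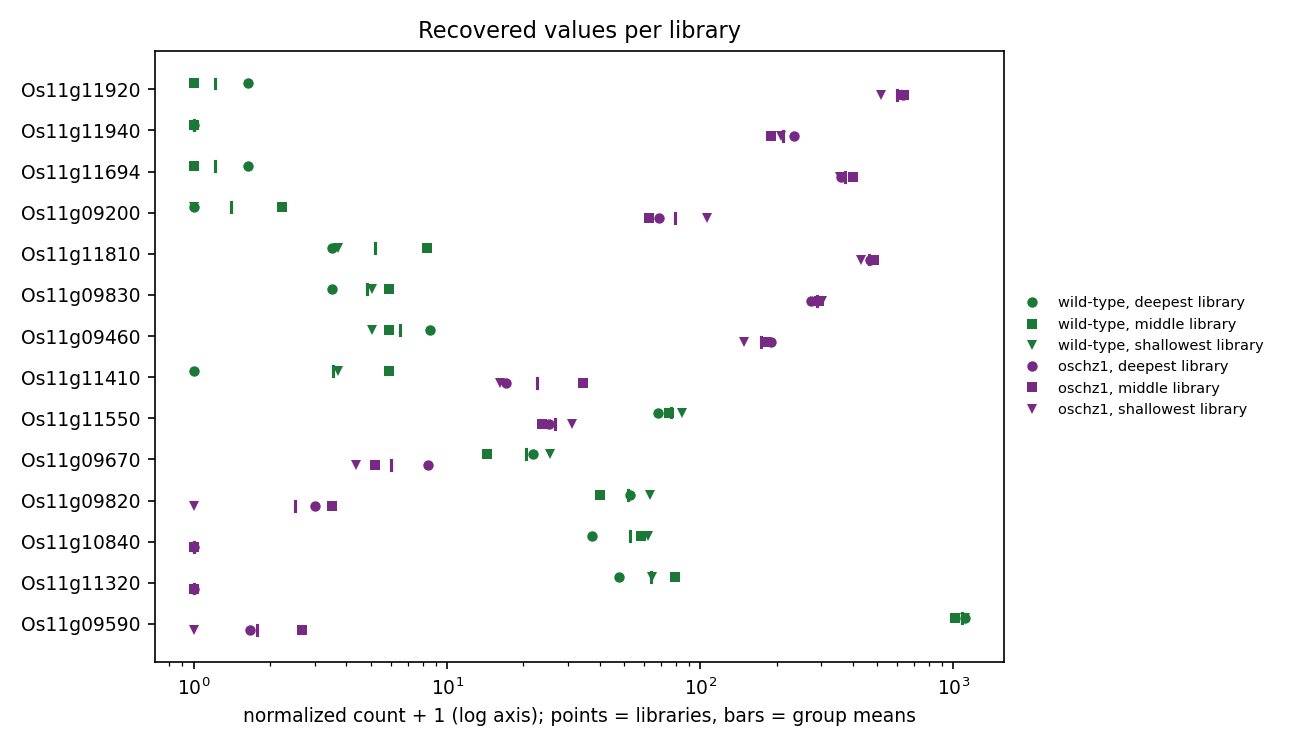
Normalized count plus 1 in each library (horizontal log axis) for the 14 named strongly changed members whose reads were recovered, ordered by fold change. Green marks are wild-type, purple marks oschz1, symbols give the depth of the library, and short bars are group means. The genotypes do not overlap in any of the 14, but these were chosen as called members with extreme fold changes, which favours such separation. Among tested loci of the rest of chromosome 11 with means of 10 to 60, 24.2% did not overlap upwards and 9.76% downwards. LOC_Os11g11940 has no wild-type reads, while LOC_Os11g10840 and LOC_Os11g11320 have no oschz1 reads.

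How far the libraries of the genotypes lay apart could be counted for all 35 tested members with means of 10 to 60, whose reads were all recovered. Every oschz1 library was above every wild-type library in 10 of them and below in 7, while 18 overlapped. Among 297 tested loci of the rest of chromosome 11 at these levels, the groups did not overlap upwards in 72 (24.2%) and downwards in 29 (9.76%). The upward share of members was thus close to this background and the downward share was larger. Neither difference was tested.

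Members with means under 10 held 4 calls, and these loci were named after their values were seen. LOC_Os11g09470 had no wild-type reads and 24, 20 and 9 in oschz1, with a limit of 16.8-fold higher. It directly followed the increased LOC_Os11g09460 in the order of tested loci. LOC_Os11g09720 had no wild-type reads and 10, 12 and 6 in oschz1, with a limit of 9.38-fold higher. LOC_Os11g09375 had 7, 2 and 5 reads in wild-type and LOC_Os11g10790 had 4, 5 and 4, both with none in oschz1. Their limits were 4.97-fold and 5.12-fold lower. The 95% intervals from the SE reached further down, to 2.62-fold and 2.71-fold for these genes. For LOC_Os11g09470 and LOC_Os11g09720 they reached 14.2-fold and 6.76-fold. Of the tested members that were not called, 7 had changes of at least 1 on the log2 scale, all with means under 10.

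The 28 members that were not tested had between 2 and 11 reads over all 6 libraries, with a median of 5. Reads were seen in both genotypes for 14 of them, in oschz1 alone for 8 and in wild-type alone for 6. None has an adjusted p. The members with most reads in a single genotype, named after their values were seen, were LOC_Os11g09360 and LOC_Os11g09800. LOC_Os11g09360 had 5, 2 and 3 reads in wild-type and none in oschz1, with a limit of 3.52-fold lower. LOC_Os11g09800 had none in wild-type and 3, 3 and 3 in oschz1, with a limit of 3.34-fold higher. The 95% intervals from the SE reached down to 1.53-fold for LOC_Os11g09360 and 1.39-fold for LOC_Os11g09800.

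**Figure D3:**
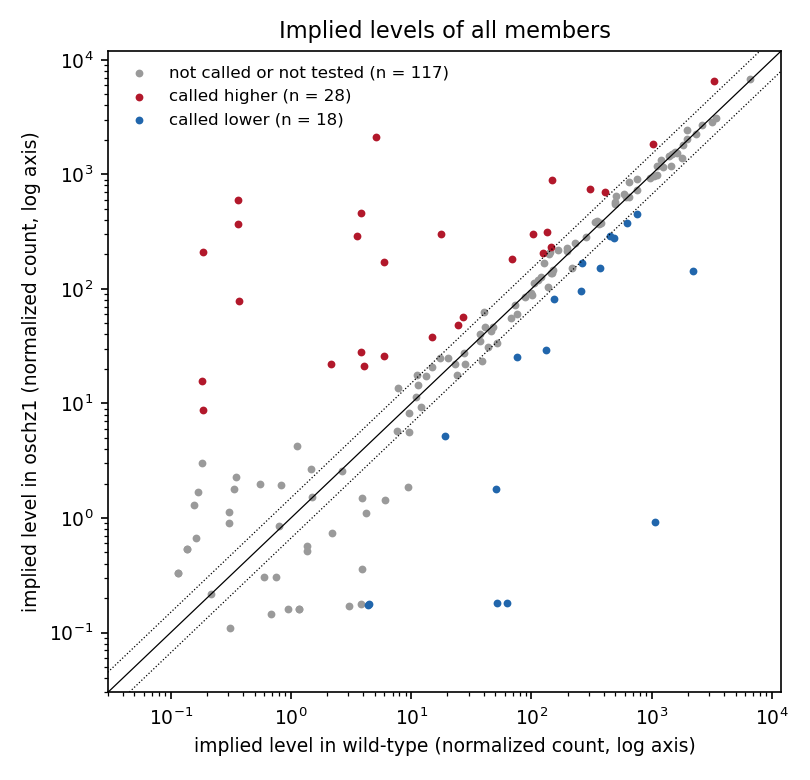
Implied level of each of the 163 members in wild-type (horizontal) and oschz1 (vertical), as normalized counts on log axes. The solid line marks equal levels and the dotted lines a 1.5-fold difference. Called members (red, 28 higher; blue, 18 lower) spread to both sides, and 7 of the 8 most abundant members lie inside the dotted lines, LOC_Os11g09280 lying above them.

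Most of the abundant genes of the interval were not called. At means of 1000 or more, 17.4% of tested members were called, against 1.44% on the rest of chromosome 11. Of the 8 members of highest mean, 7 were not called, and their log2 fold changes lay between -0.16 and 0.29. LOC_Os11g10320, the highest, had implied levels of 6544 normalized counts in wild-type and 6757 in oschz1, a log2 fold change of 0.05 (SE 0.05). LOC_Os11g10310 directly before it was at 3443 and 3080, or -0.16 (SE 0.06), and LOC_Os11g11000 at 3200 and 2858, or -0.16 (SE 0.06). LOC_Os11g10070, LOC_Os11g09940 and LOC_Os11g10420 had log2 fold changes of 0.06, -0.08 and 0.05, each with an SE of 0.06. LOC_Os11g10060 was at 1980 and 2422, a change of 0.29 (SE 0.06) that stayed under the fold threshold. The exception was LOC_Os11g09280, at 3327 in wild-type and 6592 in oschz1, called higher with a log2 fold change of 0.99 (SE 0.05).

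Along the interval the share of members called differed between stretches, which was not tested. In steps of 500 locus numbers, each given by its first and last tested member, from LOC_Os11g09110 to LOC_Os11g09478, 7 of 19 tested members were called, 6 higher and 1 lower. From LOC_Os11g09590 to LOC_Os11g09990 it was 12 of 19, with 4 higher and 8 lower. From LOC_Os11g10000 to LOC_Os11g10480, 3 of 28 were called, all higher and none with a log2 change of 3 or more. From LOC_Os11g10510 to LOC_Os11g10990 the count was 8 of 22, with 3 higher and 5 lower, and from LOC_Os11g11000 to LOC_Os11g11490 it was 4 of 18, with 2 in each direction. From LOC_Os11g11500 to LOC_Os11g11990, 10 of 16 were called, 8 higher and 2 lower, and the 16 had a median log2 fold change of 0.80. From LOC_Os11g12000 to LOC_Os11g12420, 2 of 13 were called, both higher. Calls were thus densest in the second and the sixth of these steps, with more lower than higher calls in the second and more higher than lower calls in the sixth.

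Called neighbours moved in 1 direction in some pairs and in opposite directions in others. Among the 134 pairs of adjacent tested members, 21 pairs (15.7%) had both members called, 14 in 1 direction and 7 in opposite directions. On the rest of chromosome 11 it was 25 of 1400 pairs (1.79%), 19 of them in 1 direction. Passing over members that were not called, 29 of 45 consecutive called members had the direction of the one before and 16 the opposite. With 34.1% of tested members called, against 8.63% elsewhere on the chromosome, more called pairs arise here in any order of loci. With 28 higher and 18 lower calls, many pairs also share a direction in any order. Whether neighbours moved together was not tested. The ends of runs named next were chosen after their values were seen. The longest runs of called members were 6 loci, from LOC_Os11g09710 to LOC_Os11g09850 and from LOC_Os11g11790 to LOC_Os11g11950, and both held members in both directions. In the first, log2 fold changes ran from -4.82 to 6.35, the decreased LOC_Os11g09820 directly preceding the increased LOC_Os11g09830. The second ended in the longest run in 1 direction, 5 members called higher from LOC_Os11g11810 to LOC_Os11g11950, with log2 fold changes between 1.41 and 10.69. Against these stood 2 runs of 14 tested members without a call, from LOC_Os11g10230 to LOC_Os11g10434 and from LOC_Os11g10870 to LOC_Os11g11256.

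Called loci were also found just outside both limits of the interval. Just inside the lower limit, LOC_Os11g09110, LOC_Os11g09140 and LOC_Os11g09150 had log2 fold changes of -0.40, 0.27 and -0.04 and were not called. Just outside it, LOC_Os11g09080 had no wild-type reads and 8, 4 and 10 in oschz1, and LOC_Os11g09040 had a log2 fold change of 0.97, and both were called higher. LOC_Os11g09020 was at 0.17. Just inside the upper limit, LOC_Os11g12340, LOC_Os11g12410 and LOC_Os11g12420 were at -0.07, 0.82 and 0.87 and were not called. Outside it, LOC_Os11g12530 was at 0.03, LOC_Os11g12590 at 2.17 from a mean of 2.08, and LOC_Os11g12620 at 1.18 and called higher.

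Chromosome 11 was also divided into 48 stretches of 1000 locus numbers. The stretch beginning at 9000 held 21 calls among 42 tested loci, the one at 10000 held 11 of 50 and the one at 11000 held 14 of 34. The one at 12000 held 3 of 21. Outside these 4 stretches no other held more than 7 calls, 4 lower calls or 3 changes of at least 3 on the log2 scale, and the median share called was 7.69%. The highest share outside was 25%, from 5 of 20 tested loci in the stretch at 17000.

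**Figure D4:**
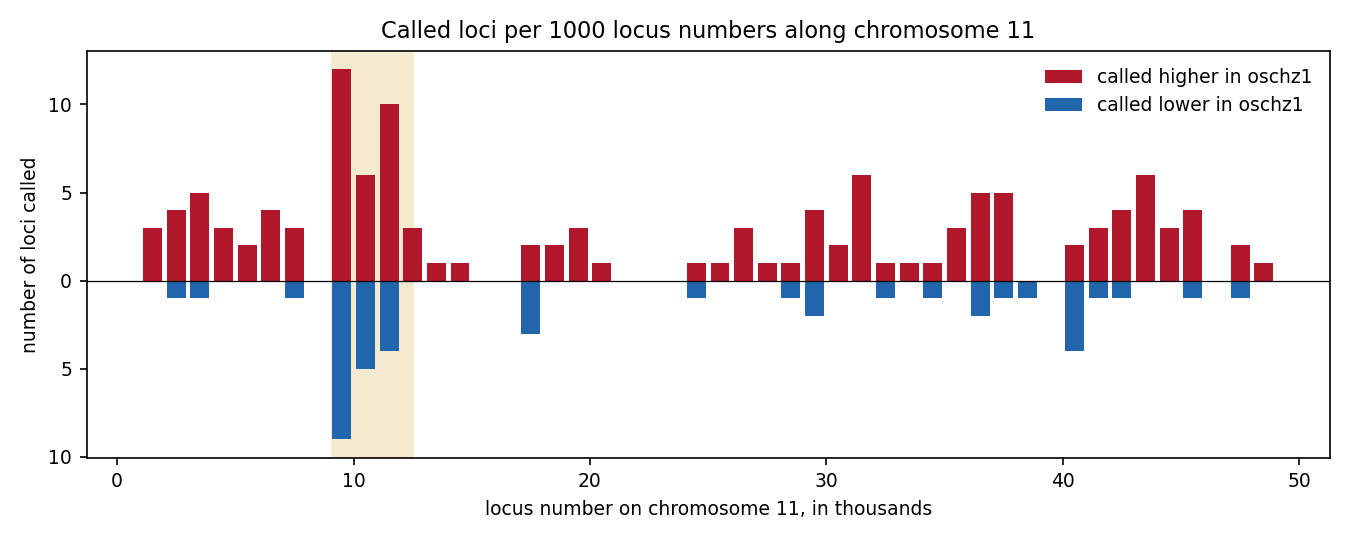
Number of loci called higher (red, upwards) and lower (blue, downwards) in oschz1 for each 1000 locus numbers of chromosome 11 (horizontal axis, locus number divided by 1000). Shading marks LOC_Os11g09100 to LOC_Os11g12500. The stretches at 9000, 10000 and 11000 hold 21, 11 and 14 calls, the one at 12000 holds 3, and no other stretch holds more than 7.

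Both other intervals set beside it held fewer calls. LOC_Os11g34500 to LOC_Os11g37500 had 14 of 118 tested loci called (11.9%), 11 higher and 3 lower, and 5 changes of at least 3 on the log2 scale, all higher. LOC_Os10g16000 to LOC_Os10g23000 had 21 of 149 called (14.1%), 14 higher and 7 lower, with 6 strong increases and 2 strong decreases. Both of these intervals were also picked from this comparison, so the counts stand side by side without a test.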

How the data were processed

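RNA-seq was available as 1 table of the comparison of 3 oschz1 with 3 wild-type libraries. According to the study's methods and processing notes, the authors trimmed poly(A) stranded reads with cutadapt, aligned them with HISAT2, kept unique alignments with SAMtools, counted genes with featureCounts (strand setting not given in the sources used here) and ran DESeq2 against MSU locus identifiers. Reads of near-identical gene copies, or of overlapping antisense genes, may therefore be uncertain.

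The deposited mean normalized count is a signal: per gene, the authors averaged the size-factor-scaled counts of the 6 libraries. The fold change and the SE were deposited on the log2 scale, unshrunken. The deposited Wald statistic is a score, and the deposited p-values are two-sided, adjusted by the authors over 25945 genes. These columns are the authors' own comparison. They were used because the table holds nothing else, with 0 columns of single libraries, and no p-value is printed. Its header does not name the numerator, so the direction was set from the study's description of more genes raised than lowered (1619 calls are positive and 348 negative). No gene-wide test could be refitted.

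Implied levels were computed from the mean and the fold change, with libraries weighted equally. All 2243 means under 0.7 were sums of whole reads within 3e-08, which gave the size factors. Reads per library were then searched for members with means up to 60, or with few reads in 1 genotype, keeping the set whose predicted log2 fold change matched the listed one within 1e-04. For 53 members the mean alone fixed the reads. For the others the match in fold change chose among several sets, 1796 of them for LOC_Os11g11810. The search was tested on simulated data, where 181 of 181 genes with means under 60 and 40 of 40 with higher means and few reads in 1 genotype were returned correctly. The simulated fold changes came from the same fit that the search inverts. The simulation therefore cannot show whether that fit matches the authors' DESeq2. Python 3 scripts with numpy, pandas, SciPy and Matplotlib were used.

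The members and lists were chosen with earlier results of these data known. Named loci are the called members with the 10 lowest and 10 highest log2 fold changes at a mean of at least 10, the 8 of highest mean, those at a mean of at least 10 with under 3 implied reads in a genotype, and the 3 tested loci on each side of each limit. Alternatives were other thresholds, filters, limits and ways to compute a level. None of the 163 identifiers matched the reference gene table, so no check of the tissue by marker genes was made.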

Additional observations from a re-analysis of the deposited data

How the results depend on the processing

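The counts of members called lower and higher stayed within 1.5 times of 18 and 28 under every alternative threshold, filter and limit tried, except that 18 rather than 28 were called higher with means of at least 50. The share called among tested members and among the rest of chromosome 11 was 25.2% and 5.78% at a 2-fold threshold. It was 42.2% and 16.9% with no fold threshold, and 35.6% and 10.3% at an adjusted p of at most 0.1. With p adjusted over every gene, the members called stayed at 18 lower and 28 higher. The shares were then 28.2% and 6.89%, but taken over every gene with a p, untested ones included. The median log2 fold change of the rest of the chromosome was -0.0102 with means of at least 50. The median mean normalized count was 143 for members and 132 for the rest under the authors' filter, and 176 and 207 with means of at least 10. Of 36 implied levels of 18 named loci, 33 were within 1 SD of the level from recovered reads. The 3 beyond it were genotypes with no reads. The reads were recovered from the same means and fold changes, so this closeness was built in and does not test the implied levels.

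No paired analysis was possible because the table holds no columns that carry replicate numbers. For want of counts of all genes, no test could be refitted without a library. As an alternative chosen after seeing the data, each recovered library was left out in turn for the 7 named changed members with more than 3 reads in both genotypes. The genotypes did not overlap in any of the 7, so no ratio of group means could change direction, and none of 39 did. Of these ratios, 2 moved by more than 1.5 times (LOC_Os11g09820 from 33.8 to 22.5 and LOC_Os11g11810 from 110.0 to 176). Another 3 ratios, with 3 reads or fewer left, were not computed. Single libraries of abundant members could not be recovered, so for these the SE alone gives the precision.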
